A study of Bos taurus with 72 samples.

Results

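Of 12655 genes tested in the blood of 24 male beef cattle, 182 (1.44%) had levels that correlated closely over the animals between entry and close-out. They were chosen from the measured values. For each gene the level was the log2 of the read count scaled to library size (log2 CPM), and the gene was taken where Pearson's r over the 24 animals between entry and close-out was at least 0.8. Among the 182 genes r ran from 0.80 to 0.992, with a median of 0.876; 66 were at 0.9 or more and 29 at 0.95 or more. The median over all tested genes was 0.116. A high Pearson r can rest on 1 or 2 animals: Spearman's rho, which uses ranks only, was at least 0.8 in 106 of the 182 genes, under 0.5 in 10, and 0.158 at the lowest. The 3 genes just inside the threshold had r of 0.8002, 0.8008 and 0.8009, and the 3 just outside 0.7978, 0.7974 and 0.7956, so the limit falls within a continuous distribution. These values define the genes and carry no test.

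Inherited variants in or near a gene can set its output for life, genes present in different copy numbers give different amounts of RNA, and the make-up of blood cells differs between individuals and changes with infection and stress. Immune gene families such as the major histocompatibility complex are known for differing between individuals in sequence and in gene content. Where levels fall into separate groups of animals rather than along a continuum, they are often described as bimodal.

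The same animals were sampled at 3 stages labelled entry, pulled and close-out, with 24 libraries a stage and 72 in all. Blood was drawn into PAXgene tubes, which preserve RNA, only animals whose RNA passed an integrity threshold were used, and polyadenylated RNA was sequenced. The labels give the stage, the animal, the tissue and the sex, but no breed, age, sampling interval, diagnosis or treatment per animal, and no healthy animals sampled alongside were analysed here. The series title names bovine respiratory disease as the subject. In such bulk samples, fewer cells of a type and less RNA per cell cannot be told apart.

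The counts are per Ensembl gene identifier. The files do not pair identifiers with names, and 0 of them matched the reference gene table used here. Only 4 genes are therefore printed by identifier, and the functions of the genes, their position, their sequences and the blood cell markers were not analysed here. Total counts per library ran from 8239194 to 29142042. The pulled libraries labelled as animals 9 and 12 (title numbers 26 and 41) did not match their own animals. Levels, sides and correlations at pulled are therefore over the other 22 animals, while the comparisons of stages keep all 72 libraries and are also given without these 2. At entry, the library scaling factors of the 6 animals with title numbers above 98 (0.676 to 0.913) lay below those of the other 18 (0.992 to 1.356). Within the 18 animals, 164 of the 182 genes still had r of at least 0.8 between entry and close-out (median 0.889). The median within the 6 was 0.918, with a lowest value of -0.79, from only 6 animals.

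**Figure D1:**
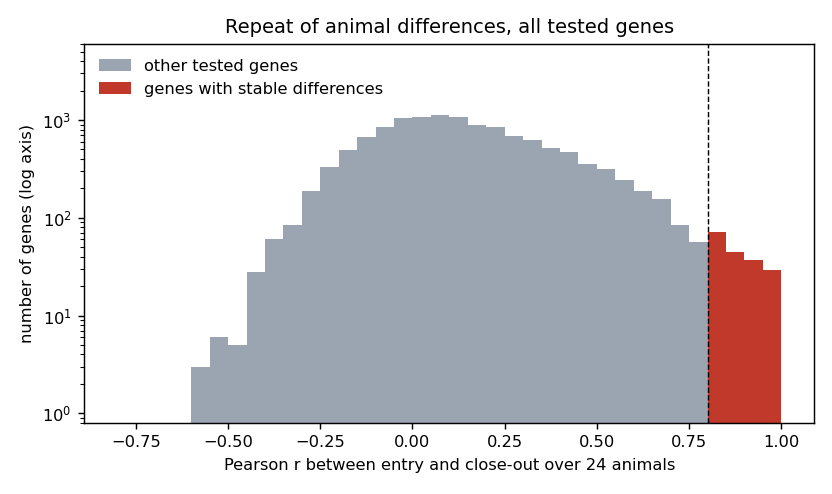
Distribution of Pearson's r between entry and close-out over 24 animals (x axis) for all 12655 tested genes, with the number of genes per bin on a log axis (y axis). The 182 genes to the right of the dashed line at 0.8 form the upper tail of a distribution centred near 0.116.

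The differences between animals were wide. The animal level was defined as the mean log2 CPM of entry and close-out, and its range is the highest animal minus the lowest. The range had a median of 4.37 log2 units among the 182 genes, which is 20.7-fold, and ran from 0.58 to 11.26. The median over all tested genes was 1.42. Of the 41 tested genes with a range of at least 6 log2 units, 32 were among the 182, and of the 252 with at least 4 units, 107 were. A wide range favours a high r, so these counts describe the choice. The spread at pulled, which did not enter the choice, had a median SD over animals of 1.24 log2 units in the 182 genes and 0.459 in the other genes. A wide spread alone did not mark a lasting difference. Of 889 genes with an SD of at least 1 at pulled, 619 had r under 0.5 between pulled and the animal level. Mean counts per library ranged from 7.36 to 91900 among the 182 genes with a median of 92.3, and 67 genes had fewer than 50, where single libraries rest on few reads.

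In 67 of the 182 genes (36.8%) the animals fell into separate groups. A gene was called split where the largest gap between neighbouring animals in the order of animal level was at least 1 log2 unit with at least 3 animals on each side. Of the 12473 other genes, 11 (0.0882%) met the same rule. The split was called on the entry and close-out values that chose the genes, and a gap in their mean favours a high r, so these shares describe the choice too. The gap had a median of 1.73 log2 units, was at least 2 units in 24 genes and at least 4 units in 5, and reached 5.92. The smaller side held 3 to 5 animals in 27 genes, 6 to 8 in 21 and 9 to 12 in 19. The low side was the smaller one in 35 genes, the high side in 30, and 2 genes divided the animals 12 to 12. In 22 of the 67 genes, at least 9 in 10 low-side libraries held 3 reads or fewer, and in 28 no low-side library was at 0. Both near-absence and a lower but measurable level therefore occurred.

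ENSBTAG00000032057 had the widest gap, 5.92 log2 units. In its 14 low animals the counts were 0 to 1 read at entry, 0 to 3 at pulled (12 animals) and 0 to 3 at close-out. In its 10 high animals they were 121 to 571 reads at entry (median 235), 128 to 404 at pulled (median 260) and 140 to 538 at close-out (median 221). The lowest high library thus held 121 reads and the highest low library 3, and no animal changed side at any stage. Of the 22 animals at pulled, 22 were on the side they held at the other stages (Fisher's exact test, two-sided, adjusted p = 1.36e-05 over the 78 split genes of the table).

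ENSBTAG00000045926 was absent or nearly so in 9 animals. Those animals had 0 to 1 read at entry, 0 to 1 at pulled (8 animals) and 0 to 3 at close-out, and at each stage 7 of them were at 0. The 15 high animals had 59 to 262 reads at entry (median 87), 55 to 263 at pulled (median 114, 14 animals) and 64 to 330 at close-out (median 104). The sides did not overlap, and all 22 animals kept their side at pulled (Fisher's exact test, adjusted p = 1.36e-05).

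ENSBTAG00000040367 was high in a minority. In 6 animals it had 378 to 805 reads at entry (median 627), 218 to 812 at pulled (median 438, 5 animals) and 353 to 952 at close-out. The 18 low animals had few reads, 2 to 14 at entry, 1 to 12 at pulled (17 animals) and 2 to 15 at close-out. Of the low libraries 0 were at 0, and whether these few reads came from this gene was not tested. The high and low medians differed by 5.99 log2 units at entry, 6.35 when pulled and 6.63 at close-out. All 22 animals kept their side at pulled (Fisher's exact test, adjusted p = 8.71e-05).

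ENSBTAG00000003352 was low in 5 animals and high in 19, with a gap of 4.14 log2 units. The low animals had 0 to 1 read at entry, 0 to 3 at pulled and 0 to 3 at close-out. The high animals had 212 to 2309 reads at entry with a median of 525. In this gene 2 animals had libraries at unlike levels. Animal 13 had 488 reads at entry, only 3 when pulled and 563 at close-out. Animal 9 had 486 reads at entry and 12 at close-out. As its pulled library was left out, which of these 2 libraries shows the usual level of animal 9 cannot be told. Its place on the high side rests on their mean, which is the lowest of the high side and so also sets the gap. The pulled library of animal 13 was on the side of its animal in 65 of the 67 split genes, so most other split genes kept that animal's pattern. At pulled, 21 of 22 animals kept their side in ENSBTAG00000003352 (Fisher's exact test, adjusted p = 0.000386).

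**Figure D2:**
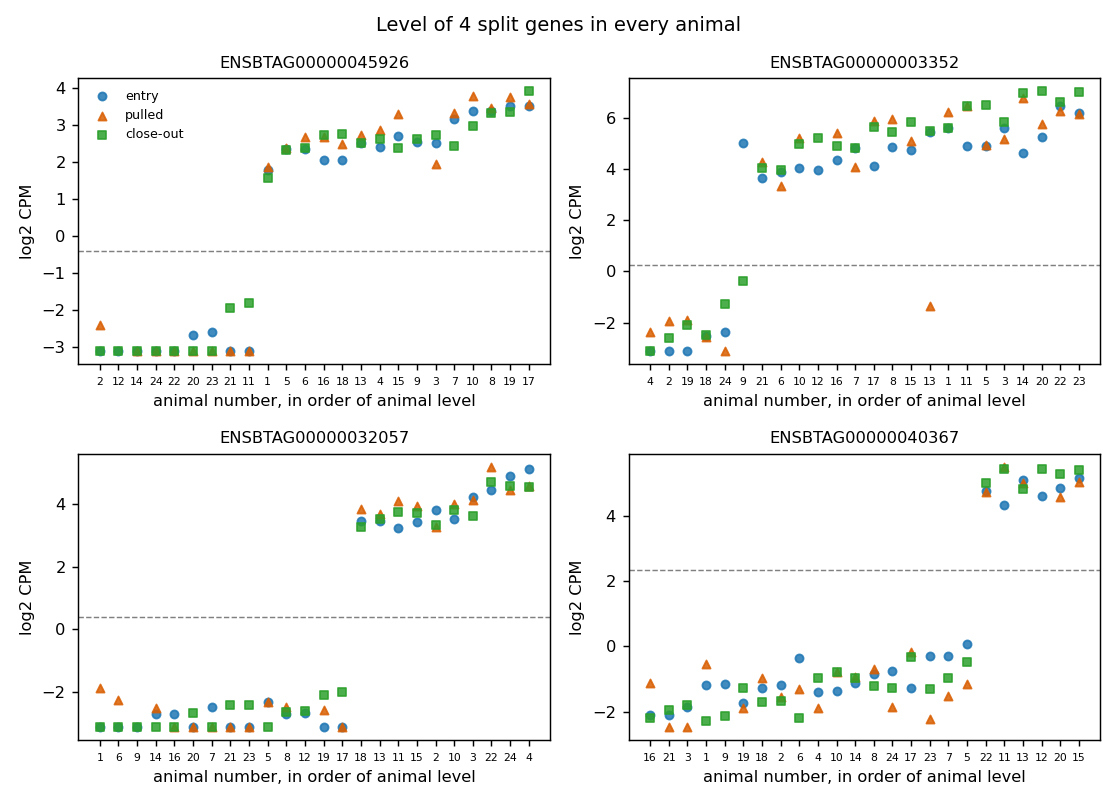
Level in log2 CPM (y axis) of 4 split genes in each of 24 animals (x axis, animals in order of their mean of entry and close-out) at entry (circles), pulled (triangles, 22 animals) and close-out (squares); the dashed line is the midpoint of the gap. The stages of an animal lie together on one side, except for 2 animals in ENSBTAG00000003352. There animal 13 at pulled lies across the line, and entry and close-out of animal 9 lie on opposite sides.

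Levels near 0 reads depend on the added prior count, so the size of a gap beside silent animals depends on it too. With a prior count of 5 in place of 2, the gap was 4.91 log2 units for ENSBTAG00000032057, 3.22 for ENSBTAG00000045926, 3.58 for ENSBTAG00000003352 and 4.85 for ENSBTAG00000040367, and the same numbers of animals kept their side at pulled.

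The pulled libraries did not enter the choice of the genes or of the sides, so they test whether the sides last. Those of animals 9 and 12 were left out because they did not match their animals (same side in 37 and 46 of 67 genes). The counts that follow are therefore over animals kept after a check of that match. Over the 67 split genes and 22 animals, 1449 of 1474 placements (98.3%) were on the same side at pulled. In 51 genes all 22 animals kept their side, in 12 genes 21 did, and the lowest count was 17. Of the 25 placements that changed, 16 went from low to high and 9 from high to low. All 67 genes passed Fisher's exact test with an adjusted p of at most 0.0499, beside 91.0% of the 78 split genes of the whole table. In the gene with the largest adjusted p, animals 9 and 12 were among the 3 high animals, so its high side at pulled was a single animal. In other genes too, leaving out these animals left fewer than 3 on a side, so their test and lack of overlap rest on few animals. The levels of the sides did not overlap at pulled in 62 of the 67 genes, beside 84.6% of the 78, and over the 70 undoubted libraries of all 3 stages they did not overlap in 54. Both shares are counted over split genes that are mostly these 67, so they are no separate background. Among the 24 genes with a gap of at least 2 units, 23 kept all 22 animals in place. The 11 other split genes kept 13 to 22 animals (median 19), and 4 of them passed. The median difference between the sides was 3.52 log2 units at entry, 3.59 when pulled and 3.49 at close-out.

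**Figure D3:**
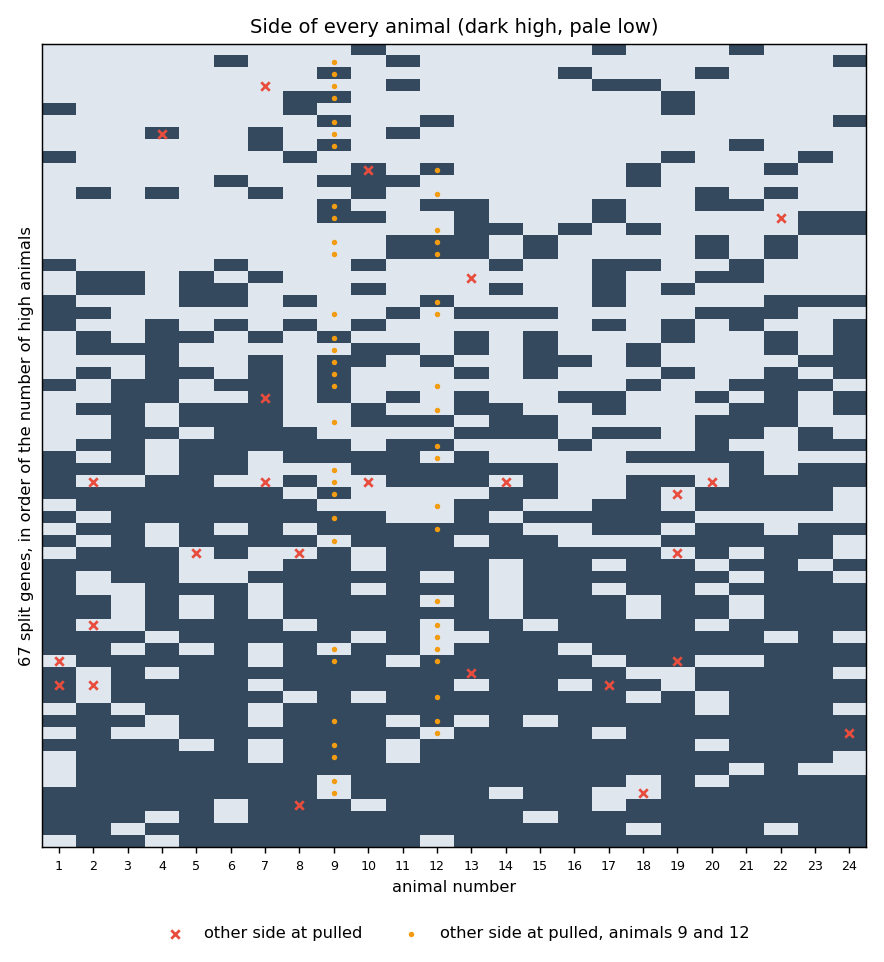
Side of each of 24 animals (x axis) in each of the 67 split genes (y axis), dark for high and pale for low; crosses mark an animal found on the other side at pulled, dots the same for the doubted pulled libraries of animals 9 and 12. Crosses are few, 25 in 22 animals, while the columns of animals 9 and 12 hold many dots.

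Every animal carried its own combination of sides. An animal was high in 29 to 40 of the 67 split genes and was on the smaller side in 12 to 25. Its pulled library matched its own sides in 64 to 67 genes (22 animals), while it matched the sides of any other animal in 27 to 54 (median 41). The pulled library labelled as animal 9 was on that animal's side in 37 of 67 genes and on the side of animal 11 in 67 of 67. The one labelled as animal 12 was on its animal's side in 46 genes, and the best match among all animals was 48. None of the 67 genes divided the animals exactly into the 6 and the 18. All 67 had both sides among the 18 animals, and 49 had both among the 6.

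More than 2 levels were seen in 7 of the 182 genes, with 2 gaps of at least 1 log2 unit and at least 3 animals in each of 3 levels. In 4 of them all 22 animals kept their level at pulled, and the lowest count was 18. The clearest of these genes had gaps of at least 1.76 units. Its 10 low animals had 2 to 17 reads at entry, 2 to 24 at pulled (9 animals) and 3 to 40 at close-out. Its 10 middle animals had 77 to 1557 reads at entry, 71 to 658 at pulled (9 animals) and 57 to 1991 at close-out. Its 4 high animals had 2815 to 11950 reads at entry, 3569 to 13573 at pulled and 4833 to 11856 at close-out. At each stage the 3 levels did not overlap, and 22 of 22 animals held the same level at pulled.

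Within a side, animals still differed. Sides of at least 6 animals with a median of at least 20 reads were compared with pulled, as a description without a test. Over 41 high sides the median r with pulled was 0.732, 17 had r of at least 0.8, and values ran from -0.82 to 0.96. Over 14 low sides the median was 0.431, and 3 had at least 0.8. Without the minimum of 20 reads there were 49 low sides with a median of 0.251, of which 14 were below 0, and 51 high sides with a median of 0.709. The 49 include sides without any variation in the animal level or at pulled, whose r is undefined and was entered as 0. With the minimum of 20 reads the high sides spanned a median of 2.19 log2 units and the low sides 1.89. Without it the medians were 2.214 and 1.565.

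In 29 genes without a split, 1 or 2 animals stood apart from all others by at least 1 log2 unit. The animals apart were low in 23 genes and high in 6, with a median gap of 2.31 log2 units. In 19 genes it was a single animal. Of the 37 cases that could be read at pulled, the animal was again beyond all others in 34 (91.9%). In the widest case animal 20 had 3259 reads at entry, 2487 when pulled and 2441 at close-out, while no other animal exceeded 47, 54 and 26. Its level was 7.10, 6.67 and 6.64 log2 CPM, against medians of -0.06, -0.10 and -0.31 in the other animals. Over the 29 genes, r with pulled had a median of 0.897. Without the 2 animals farthest from the median it was 0.687, so a large part of the repeat rested on those animals. Animals 20 and 21 stood apart in 5 genes each, animal 2 in 4, and 4 animals in none.

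The remaining 86 genes were graded, with no such gap. Their range was 0.58 to 5.24 log2 units with a median of 2.98. Their r with pulled over 22 animals had a median of 0.848 and a Spearman rho of 0.823, and 55 were at 0.8 or more. Without the 2 farthest animals the median r was 0.821 and 49 stayed at 0.8 or more. The graded gene with the highest r between entry and close-out (0.970) went from 2.56 to 6.14 log2 CPM at entry (median 5.02), from 2.49 to 6.03 at pulled (median 4.76) and from 2.58 to 6.13 at close-out (median 4.85). Its r with pulled was 0.959 (permutation test, p = 1e-05, the smallest that 100000 resamples can give, adjusted p = 0.000692) and its rho 0.93 (permutation test, p = 1e-05, adjusted p = 0.00112). Without its 2 farthest animals r was 0.968, and no gap between neighbouring animals exceeded 0.70 units.

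**Figure D4:**
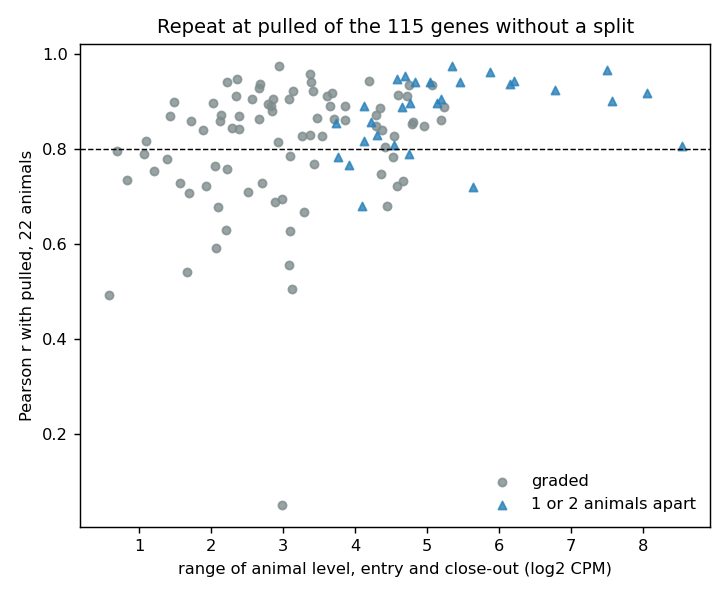
Range of the animal level at entry and close-out in log2 units (x axis) against Pearson's r with pulled over 22 animals (y axis), for the 86 graded genes (circles) and the 29 genes with 1 or 2 animals apart (triangles). Most lie above the dashed line at 0.8, and 1 graded gene lies near 0 with r of 0.05.

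Over all 182 genes, 142 reached r of at least 0.8 with pulled, beside 1.79% of all tested genes. A two-sided permutation test over the 22 animals, adjusted over all 12655 genes, passed with a positive r in 174 of the 182 genes, beside 7.27% of all genes. By Spearman's rho 159 passed, beside 727 of all 12655 genes, with either sign counted. Among the 115 genes without a split, 107 passed and 79 reached 0.8. Of those 115, 12 had r under 0.5 once the 2 farthest animals were left out. The repeat was closer the higher r had been. With r from 0.8 to 0.85 between entry and close-out, 42 of 71 genes reached 0.8 with pulled, and from 0.85 to 0.9, 34 of 45 did. Above 0.9, all 66 genes did. The 40 genes that fell short had a median r of 0.823 between entry and close-out. The lowest value with pulled was 0.05 (rho 0.095, permutation test, adjusted p = 0.912), in a gene with r of 0.816 between entry and close-out whose counts ran from 1 to 28 reads.

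The stable genes mostly did not move together. Among 16471 pairs of the 182 genes the median absolute r in animal level was 0.152, and 18 pairs reached 0.8 or more, 13 with a positive and 5 with a negative r. These pairs linked 22 genes into 9 groups, 7 pairs and 2 groups of 4, and left 160 genes without a partner. In the pulled libraries, which were not used to find the pairs, the 18 pairs had absolute r of 0.709 to 0.977, and 11 again reached 0.8 with the same sign. In 7 of the 18 pairs, which include the 5 negative ones, both genes had the same single animal standing apart, animal 21 in 6 pairs and animal 20 in 1. Without that animal the absolute r of these 7 pairs was 0.065 to 0.614, and at pulled 0.0059 to 0.656, so 0 of them reached 0.8. One group of 4 genes consisted of the 6 pairs of animal 21. The other 11 pairs had a positive r, and 9 of them again reached 0.8 at pulled. The closest pair (r = 0.99 over 24 animals) placed the same 10 animals high and the other 14 low in both genes. Whether paired genes are near-identical copies that share reads was not tested.

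Each of the 4 printed genes was compared with all other tested genes. The gene most like ENSBTAG00000040367 was another of the 182, with r of 0.941 in animal level over 24 animals and 0.952 at pulled; it was split with a gap of 1.93 log2 units and placed all 24 animals on the same sides. The other 3 printed genes had no such companion. Their nearest genes had absolute r of 0.74 for ENSBTAG00000032057, 0.727 for ENSBTAG00000045926 and 0.692 for ENSBTAG00000003352 over 24 animals. None of these nearest genes was among the 182. At pulled the same pairs had r of 0.137, -0.17 and -0.42.

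Some of the 182 genes also changed between stages. The absolute log2 fold change of the 182 genes had a median of 0.19 for pulled against entry, 0.25 for close-out against pulled and 0.19 for close-out against entry, and that of all tested genes 0.27, 0.20 and 0.20. At pulled against entry 30 of the 182 genes were higher (16.5%) and 16 lower (8.79%), beside 20.2% and 21.9% of all tested genes (edgeR's quasi-likelihood test with the animal as a block, Benjamini-Hochberg adjusted p under 0.05). At close-out against pulled 24 were higher (13.2%) and 22 lower (12.1%), beside 13.3% and 13.9%. At close-out against entry 23 were higher (12.6%) and 11 lower (6.04%), beside 10.2% and 12.0%. The comparisons share libraries, so the counts are not independent of each other. Libraries of entry and close-out also entered the choice of the genes, so nothing is read from these shares about the genes as a set. Without the block by animal, 7 of the 182 genes were higher and 3 lower at pulled against entry (3.85% and 1.65%, beside 16.7% and 20.9% of all genes). At close-out against pulled these counts were 5 and 9 (2.75% and 4.95%, beside 10.8% and 12.5%), and at close-out against entry 4 and 2 (2.2% and 1.1%, beside 7.68% and 11.5%).

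When libraries were scaled by their totals alone, 15 of the 182 genes were higher and 35 lower at pulled against entry (8.24% and 19.2%, beside 12.4% and 35.9% of all genes). At close-out against pulled 41 were higher and 11 lower (22.5% and 6.04%, beside 22.0% and 6.89%). The all-gene median of the fold changes (log2) then moved from -0.03 to -0.19 and from -0.01 to 0.13. At pulled against entry the counts within the 18 animals were 46 higher and 21 lower (25.3% and 11.5%, beside 33.9% and 36.9% of all genes). With only the libraries of those 2 stages they were 17 and 10 (9.34% and 5.49%, beside 15.3% and 13.6%). Without the doubted pulled libraries 32 were higher and 20 lower at pulled against entry (17.6% and 11.0%, beside 20.7% and 22.3% of all genes). At close-out against pulled these counts were 26 and 20 (14.3% and 11.0%, beside 12.8% and 13.8%). At close-out against entry the lower genes went from 11 to 19 without the doubted libraries (11.9% of all genes), to 20 in DESeq2 (17.2% of all genes) and to 21 within the 18 animals (34.2% of all genes).

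**Figure D5:**
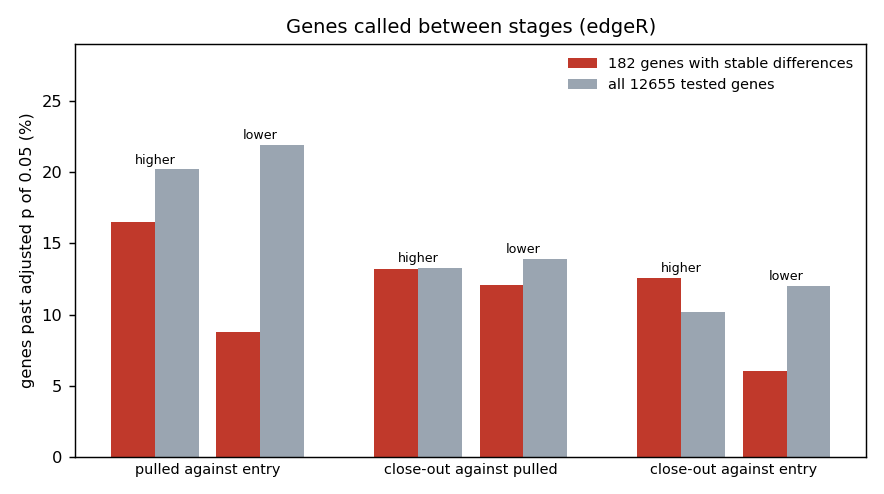
Share in percent (y axis, from 0) of the 182 genes (red) and of all 12655 tested genes (grey) that were higher or lower in each of the 3 stage comparisons (x axis; edgeR, adjusted p under 0.05). The lower share at pulled against entry is 8.79% in the 182 genes and 21.9% in all genes.

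None of the 4 printed genes passed in any of the 3 comparisons in edgeR, where 1 of the 12 tests had an unadjusted p under 0.05. DESeq2 called 0, and limma-voom called 1, ENSBTAG00000003352 at close-out against entry. The largest stage change among the 182 genes was in a split gene that is not printed. It rose at pulled against entry, by 1.72 on the log2 scale (SE 0.43, adjusted p = 0.00169 in edgeR). It then fell by 4.46 from pulled to close-out (SE 0.49, adjusted p = 1.66e-09 in edgeR). Between entry and close-out it fell by 2.74 (SE 0.46, adjusted p = 2.32e-05 in edgeR). Without the doubted pulled libraries the 3 log2 fold changes were 2.03, -4.84 and -2.81, with edgeR adjusted p of 0.000135, 5.65e-11 and 2.80e-06. Its 16 high animals had 6 to 678 reads at entry, 11 to 1149 at pulled (14 animals) and 2 to 33 at close-out. Its 8 low animals had 0 to 1 read at entry and 0 to 1 at close-out, and 0 to 93 at pulled. In 6 animals no library of the 3 stages held more than 3 reads. At pulled 19 of 22 animals kept their side, so a stage change and a lasting difference between animals were present in the same gene.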

How the data were processed

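Read counts per Ensembl gene were deposited by the authors as 1 table with 1 column per library and no normalization. TopHat2, HTSeq and the build UMD3.1 are named in the submitters' processing notes; for their versions and the strand setting, the labels state nothing. All 72 columns matched a sample by title.

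Genes were kept with the edgeR 4.0.16 filter by stage (12655 of 24616; 4766 had no count) and scaled by TMM in R 4.3.3. Log2 CPM used a prior count of 2. Animals were paired by the animal number in the labels, which names the same animal at each stage. Over all tested genes, the deviations of same-animal libraries from the stage mean were correlated between stages. The median was 0.375 between entry and close-out, 0.0619 between entry and pulled, and 0.379 between pulled and close-out. Over the 24 animals the values ran, in that order, from -0.374 to 0.805, -0.412 to 0.7428 and -0.3082 to 0.7665. They were above 0.1 in 16, 10 and 15 animals.

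The genes were chosen by r of at least 0.8 between entry and close-out. Repeat at pulled was tested by two-sided permutation (100000 resamples) for every tested gene, and sides by Fisher's exact test (scipy 1.17.1). Stages were compared in edgeR with the animal as a block over 72 libraries, with DESeq2 1.42.0 and limma-voom (limma 3.58.1) as alternatives. The scripts were tested on simulated data.

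The genes, rules and gene lists were chosen with earlier results of these data known. The gene lists were not used, because no identifier had a symbol. The rule for named genes then took the 2 split genes with the widest gap whose larger side was high, and the 2 whose larger side was low. The division into 3 levels, the minimum of 20 reads within a side, and the genes described without an identifier were chosen after their values were seen.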

Additional observations from a re-analysis of the deposited data

How the results depend on the processing

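Genes with r of at least 0.8 made up 1.44% of the tested genes (182), and 0.925% with Spearman's rho in place of Pearson's r, namely 106 of the 182 and 11 others. Leaving out each animal gave 173 to 198 genes, of which 169 to 178 were among the 182. The number was 256 without the low-count filter (172 of the 182 and 84 others) and 244 within the 18 animals (164 and 80 others). Scaling by library totals gave 162 genes, but only 129 of the 182 were among them, with 33 others. Of the 182 genes, 150 to 176 were found with RLE scaling, the other prior counts and the stricter filter. With values centred within the 18 and the 6 animals, chosen after seeing the data, it was 208, with 174 shared. The repeat at pulled passed in 170 to 176 genes without 1 animal each. With all 24 pulled libraries 105 genes reached r of 0.8 with pulled. A minimum gap of 1.5 log2 units left 41 split genes, of which 41 passed Fisher's exact test. With the sides at pulled cut at the largest gap of pulled itself, 61 of the 67 split genes passed. All 22 animals then kept their side in 43 genes, in place of 51. Scaling by library totals gave 63 split genes, of which 62 passed and 47 kept all 22 animals. Pairs of genes with a shared pattern went from 18 to 11 without the animal that stands apart in both genes, an alternative chosen after seeing the data.

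The counts of members called between stages moved most without the replicate block, that is without the pairing by animal: 7 higher and 3 lower at pulled against entry, 5 and 9 at close-out against pulled, and 4 and 2 at close-out against entry. Library totals only gave 15 and 35 at pulled against entry (all genes 12.4% and 35.9%) and 41 and 11 at close-out against pulled (22.0% and 6.89%). With only 2 stages, pulled against entry gave 17 and 10, and within the 18 animals 46 were higher. Lower genes at close-out against entry were 20 in DESeq2, 19 without the pulled libraries of animals 9 and 12, and 21 within the 18 animals. The all-gene shares for these settings are given above with the stage comparisons. The cause of these shifts was not tested. Genes with few reads limit the precision: 67 of the 182 had a mean under 50 reads.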

Other observations

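The sides of the 67 split genes can also be read by pairs of animals. Over 276 pairs, 2 animals were on the same side in 28 to 56 of the 67 genes, with a median of 41. Animals 8 and 19 shared the most. The labels give no pedigree, so relatedness was not tested.

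Outside the 182 genes, 85 of the 12473 other tested genes also reached r of at least 0.8 between pulled and the mean of entry and close-out. Without the 2 animals farthest from the median, 43 of the other genes reached 0.8, so part of this can rest on 1 or 2 animals. The threshold between entry and close-out therefore left out some genes whose differences between animals were about as close to pulled.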
